A study of Mus musculus with 9 samples.

Results

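Kit, Sohlh1, Sohlh2, Dmrt1, Dmrtb1 and Rhox13 are 6 genes that regulate or mark the differentiation of mouse spermatogonia. They were taken by name from the 39336 features of a table of RNA-sequencing values, and all 6 were found there. The table holds germ cells from the testes of adult male mice kept on a normal diet, with no genotype, strain or treatment given in the labels. There were 3 libraries each of spermatogonia (types A and B together, the mitotic germ cells), pachytene spermatocytes (in meiotic prophase) and round spermatids (haploid cells that later form sperm). The submitters call the 3 libraries of a stage biological replicates, but how the cells were isolated and whether each library came from its own animals is not given. A p-value below therefore measures the spread between these libraries. In bulk RNA, fewer cells that express a gene and less of its RNA per cell cannot be told apart.

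KIT is a receptor tyrosine kinase at the cell surface whose ligand, KITL, is made in the testis mainly by Sertoli cells, the somatic cells that nurse the germ cells. Mouse spermatogonia gain KIT when they leave the undifferentiated state under retinoic acid, and mice with defective Kit lack differentiating germ cells. SOHLH1 and SOHLH2 are germ-cell basic helix-loop-helix (bHLH) transcription factors that pair with each other and are needed in mice for this step, in part by raising Kit. DMRT1 and DMRT6, the protein of Dmrtb1, carry the DM domain, a zinc-finger DNA-binding fold. In mice DMRT1 keeps spermatogonia from entering meiosis too early, and DMRT6 helps differentiating spermatogonia switch off the spermatogonial programme as meiosis begins. RHOX13 is a homeobox protein of the X-linked Rhox cluster that is made in differentiating mouse spermatogonia.

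On the GRCm38 assembly, Kit (ENSMUSG00000005672) lies at chr5:75574916-75656722 on the plus strand, and its longest transcript has 21 exons. Sohlh1 (ENSMUSG00000059625) occupies chr2:25842995-25847248 on the minus strand with 8 exons. Sohlh2 (ENSMUSG00000027794) occupies chr3:55182028-55209957 on the plus strand with 11 exons. Dmrt1 (ENSMUSG00000024837) lies at chr19:25505618-25604329 on the plus strand, and its longest transcript has 5 exons. Dmrtb1 (ENSMUSG00000028610) lies at chr4:107676290-107684230 on the minus strand, and its longest transcript has 4 exons. Rhox13 (ENSMUSG00000050197) occupies chrX:38121219-38129967 on the plus strand with 3 exons. All 6 are protein-coding in the GENCODE M21 annotation, and the values below are 1 sum per gene over its transcripts.

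The promoters of Kit, Sohlh1, Sohlh2 and Dmrtb1 are shown because 2 of the 6 genes encode bHLH proteins, a class that binds the E-box, CANNTG. They include that of Dmrtb1, the 1 gene of the 6 that was higher in pachytene than in spermatogonia, and were chosen with the values known. Each is a RefSeq window on GRCm38.p6, from 250 bases before to 50 bases after the annotated transcription start, 5′ to 3′ on the gene's strand, with E-boxes in capitals. The windows are chr5:75574737-75575036 (plus) for Kit, chr2:25847199-25847498 (minus) for Sohlh1, chr3:55181794-55182093 (plus) for Sohlh2 and chr4:107684181-107684480 (minus) for Dmrtb1.
Kit promoter: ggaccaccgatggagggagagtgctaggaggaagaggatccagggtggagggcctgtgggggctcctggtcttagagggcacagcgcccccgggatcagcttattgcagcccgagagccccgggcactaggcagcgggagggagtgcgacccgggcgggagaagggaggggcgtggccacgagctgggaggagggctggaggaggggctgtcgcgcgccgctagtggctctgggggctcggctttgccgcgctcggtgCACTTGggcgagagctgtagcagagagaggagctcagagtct
Sohlh1 promoter: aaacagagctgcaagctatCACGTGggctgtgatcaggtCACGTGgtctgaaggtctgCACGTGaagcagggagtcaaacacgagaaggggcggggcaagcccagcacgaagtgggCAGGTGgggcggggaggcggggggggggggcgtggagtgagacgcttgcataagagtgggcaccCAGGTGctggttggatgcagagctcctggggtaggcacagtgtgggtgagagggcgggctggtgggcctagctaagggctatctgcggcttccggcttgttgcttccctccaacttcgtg
Sohlh2 promoter: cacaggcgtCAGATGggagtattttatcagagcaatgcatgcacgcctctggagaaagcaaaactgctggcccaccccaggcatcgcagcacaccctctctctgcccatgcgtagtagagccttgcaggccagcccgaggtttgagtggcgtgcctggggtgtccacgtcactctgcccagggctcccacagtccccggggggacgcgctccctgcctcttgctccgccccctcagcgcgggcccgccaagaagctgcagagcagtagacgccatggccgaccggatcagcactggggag
Dmrtb1 promoter: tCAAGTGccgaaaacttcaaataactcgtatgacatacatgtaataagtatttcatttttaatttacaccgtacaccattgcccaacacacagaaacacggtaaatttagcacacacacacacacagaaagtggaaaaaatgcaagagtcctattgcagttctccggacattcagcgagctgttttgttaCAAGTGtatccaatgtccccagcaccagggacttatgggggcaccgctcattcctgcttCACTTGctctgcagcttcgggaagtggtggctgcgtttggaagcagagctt

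The Sohlh1 window held 5 E-boxes, and 3 of them read CACGTG, at 231, 211 and 192 bases before the start. The other two read CAGGTG, at 134 and 70 bases before the start. Kit had 1 E-box, CACTTG, just inside the transcript, and Sohlh2 had 1, CAGATG, at 241 bases before the start. Dmrtb1 had 3, CAAGTG at 249 and 60 bases and CACTTG at 1 base before the start. Both strands were searched in all 32817 promoter windows of the RefSeq table, of which 72.3% held at least 1 CANNTG and 17.6% at least 3. At least 1 CACGTG, itself a form of CANNTG, was found in 7.15% of windows and at least 3 in 29 windows (0.0884%). The GC box, GGGCGG, occurred 3 times in the Sohlh1 window, as in 10.7% of windows, and once each in those of Kit and Sohlh2. The letters ACAATGT, the core of the DMRT1 motif, were in none of the 5 member windows in the RefSeq table and in 2.97% of all windows. The matched members were Kit, Sohlh1, Sohlh2, Dmrtb1 and Rhox13, whose window is not shown.

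Levels are in FPKM, fragments per kilobase per M mapped fragments (M, mega), as the authors deposited them. Depth is not stated, and the spacing of low FPKM values implies 17.8 to 61.7 M fragments per library. By that estimate the pachytene values rest on about 68 to 87 fragments for Sohlh1, 132 to 172 for Sohlh2 and 21 to 30 for Rhox13, and those of spermatogonia on 442 to 1938 for the same genes. All 8 pachytene markers were higher in pachytene libraries than in spermatogonia, and all 8 round spermatid markers were higher in round spermatids than in either other stage. The round spermatid markers were also all higher in pachytene, with sums of 1426 to 1623 FPKM, than in spermatogonia, with 1.57 to 2.26. The pachytene markers did not set the 2 later stages apart. They summed to 8434 to 8762 FPKM in pachytene and 6947 to 7136 in round spermatids, and 5 of the 8 were within the threshold given below. Markers of testis somatic cells were present in spermatogonia. The 15 Sertoli markers summed to 1468 to 1735 FPKM in spermatogonia, 332 to 346 in pachytene and 121.9 to 122.0 in round spermatids. Spermatogonia replicate 3 stood apart from the other two: its 10 peritubular and interstitial markers summed to 508 FPKM, against 304 and 246, its 8 endothelial markers to 81.8 against 43.0 and 35.4, and its 9 macrophage markers to 39.6 against 8.64 and 7.46. It also had the lowest value of its stage for each of the 6 genes. Without that library, all 18 results of the 6 genes over the 3 stage comparisons kept their direction and their side of the threshold.

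**Figure D1:**
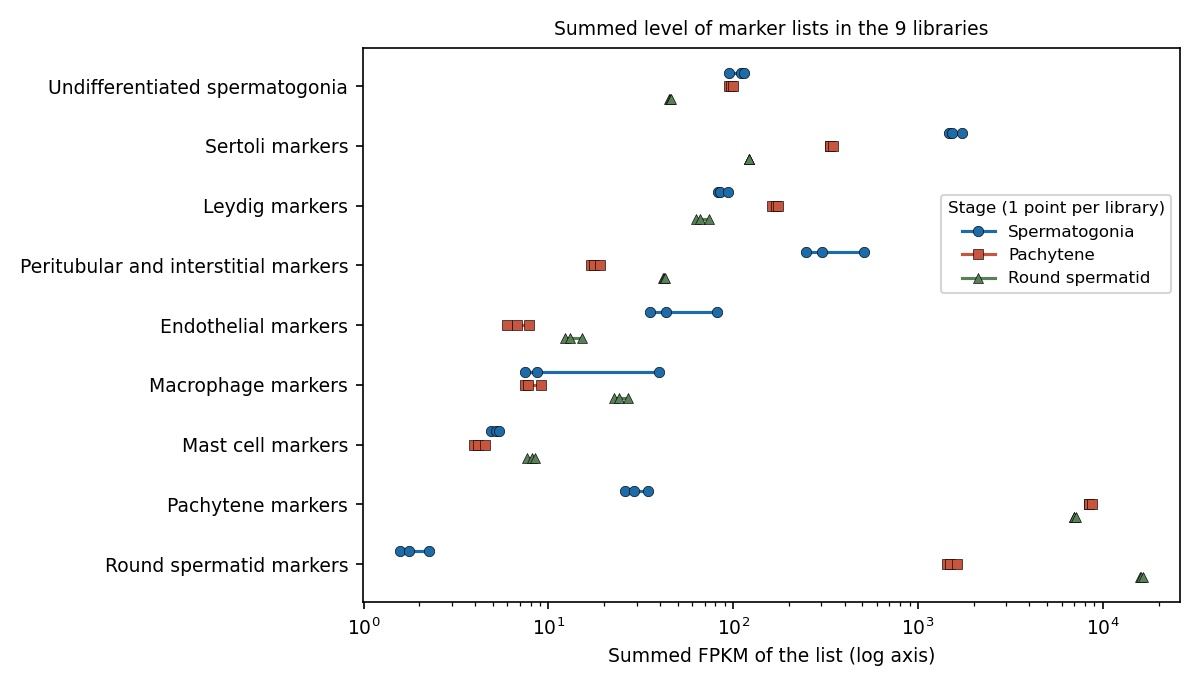
Summed FPKM of 9 marker lists on a log axis, with 1 point per library and the stages as colours. Sertoli markers are highest in spermatogonia and lowest in round spermatids, and spermatogonia replicate 3 is the rightmost of its stage for peritubular and interstitial, endothelial and macrophage markers.

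Of the 6 genes, 5 shared 1 shape over the stages and Dmrtb1 had a different one. Kit, Sohlh1, Sohlh2, Dmrt1 and Rhox13 were highest in spermatogonia, lowest in pachytene spermatocytes and intermediate in round spermatids, with no overlap between the libraries of any 2 stages. Dmrtb1 was lowest in spermatogonia and higher in both later stages. In the limma fit, which ran over the 17987 features that passed a filter on low values (all 6 genes among them), a gene is called higher or lower when its adjusted p is under 0.05 and its level moved at least 2-fold (a log2 fold change of 1 or more in size). Here "rose" and "fell" are used of such calls. In pachytene against spermatogonia, 5 of the 6 fell and 1 rose, where 31.0% of all features tested were called lower and 36.6% higher. The median log2 fold change was -3.44 over the 6 genes and 0.25 over all features. Round spermatids against pachytene had 5 that rose and 1 not called, with 27.3% of all features called higher and 13.4% lower. Some markers of somatic cells rose in the same comparison: 7 of the 9 macrophage markers tested, 4 of the 10 peritubular and interstitial ones and 3 of the 8 endothelial ones. With equal library medians these counts were 6, 3 and 1. Other lists mostly fell: 11 of the 15 Sertoli markers, with 1 that rose, and 7 of the 9 Leydig markers tested, with 0 that rose. The macrophage markers summed to 22.6 to 27.0 FPKM in round spermatids against 7.5 to 9.09 in pachytene, the peritubular and interstitial ones to 41.8 to 42.8 against 16.9 to 18.9, and the endothelial ones to 12.3 to 15.1 against 5.96 to 7.86. Their part in the rise of the 5 genes was not tested. Between round spermatids and spermatogonia, 3 of the 6 were called lower, 1 higher and 2 neither, beside 30.1% of all features lower and 38.5% higher. In either direction, 67.6%, 40.8% and 68.6% of all features were called in these 3 comparisons. Before adjustment, 15808, 13733 and 15980 of the 17987 features had a limma p under 0.05 in them. How many features had libraries without overlap was not counted, so that trait is not shown to be particular to the 5 genes. The comparisons share libraries, so the 3 counts are not separate evidence.

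**Figure D2:**
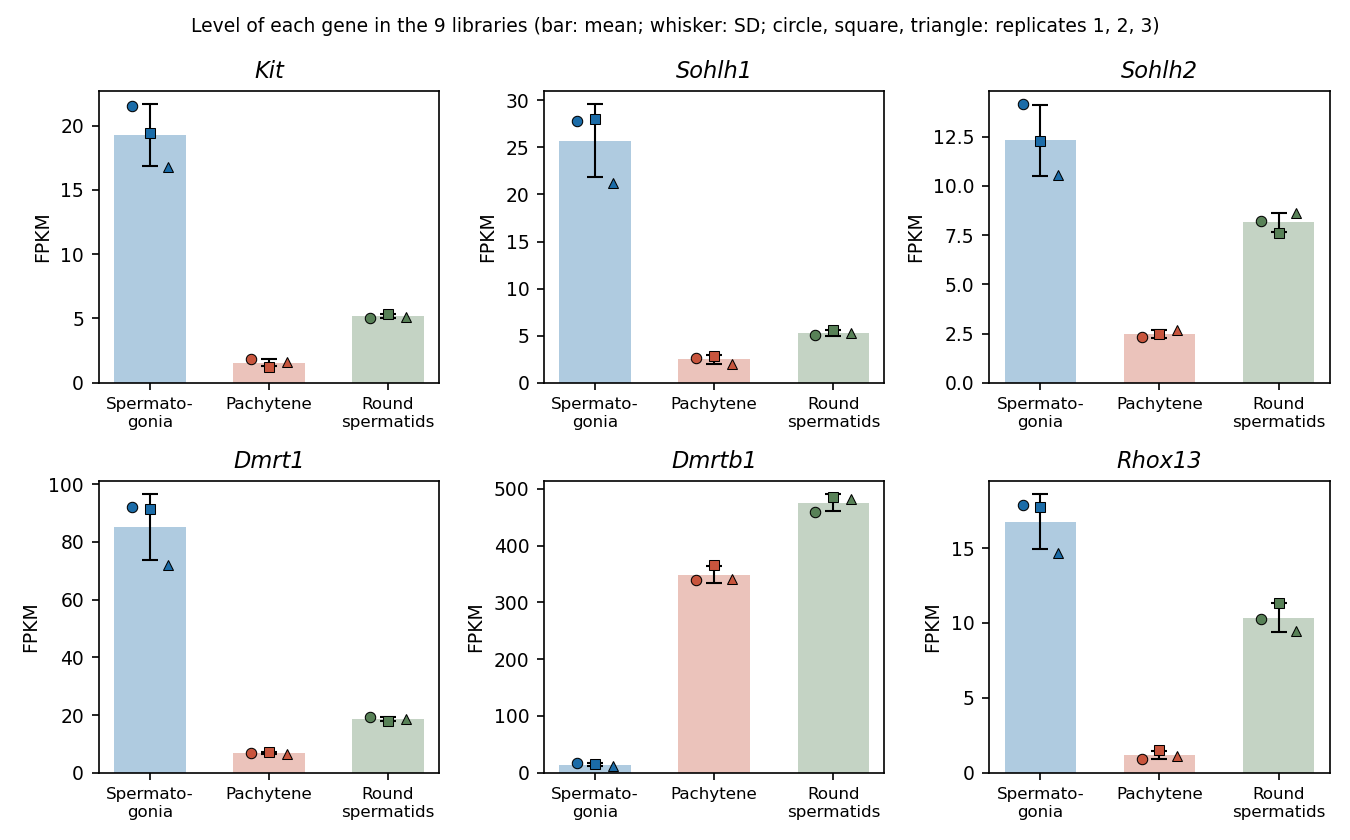
FPKM of each gene in the 9 libraries (points), with the stage mean (bar, from 0) and SD (whisker, n = 3). Kit, Sohlh1, Sohlh2, Dmrt1 and Rhox13 are lowest in pachytene, and Dmrtb1 is lowest in spermatogonia.

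Kit, the receptor, had 1.81, 1.25 and 1.60 FPKM in pachytene replicates 1 to 3, against 21.6, 19.4 and 16.8 in spermatogonia. Every pachytene library was below every spermatogonial one, and the mean fell to 8.06% of the spermatogonial mean. The limma log2 fold change was -3.56 (SE 0.137, adjusted p = 7.8e-09). In round spermatids the values were 5.07, 5.37 and 5.15 FPKM, a narrow range above all pachytene libraries and below all spermatogonia. Relative to pachytene, Kit rose by 1.69 on the log2 scale (adjusted p = 3.42e-06, limma), and relative to spermatogonia round spermatids were lower, at -1.86 (adjusted p = 8.44e-07, limma). Mouse spermatids are known to make a truncated KIT from a transcript that starts inside the gene. The gene-level FPKM does not separate it from the full-length form, so which form the round spermatid value counts was not tested. Kit is also expressed by Leydig and mast cells. The 10 Leydig markers summed to 161 to 174 FPKM in pachytene against 82.6 to 93.3 in spermatogonia, of which Insl3 made up 61.8 to 69.2 in pachytene against 3.30 to 3.62 in spermatogonia, and Fdx1 67.5 to 72.6 against 21.2 to 22.4. Of the 9 tested, 5 rose and 2 fell in that comparison, beside 36.6% of all features called higher and 31.0% lower. The 2 that fell, as Kit did, were Hsd17b3, an enzyme of testosterone synthesis, with 1.75 to 2.03 FPKM in pachytene against 23.0 to 27.2 in spermatogonia (log2 fold change -3.63, adjusted p = 3.97e-09, limma), and Nr5a1, a regulator of steroidogenic genes, with 3.79 to 4.80 against 23.3 to 28.8 (-2.61, adjusted p = 3.15e-08, limma). In round spermatids against pachytene 7 of the 9 fell and none rose, beside 13.4% of all features called lower and 27.3% higher.

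The 8 mast cell markers summed to 4.87 to 5.40 FPKM in spermatogonia, 3.96 to 4.53 in pachytene and 7.66 to 8.43 in round spermatids. Most of that was Hdc, the enzyme that makes histamine, at 3.86 to 8.01 FPKM over the 9 libraries. The mast cell proteases Tpsb2 (0.371 to 0.530 FPKM), Cma1 (0.251 to 0.403), Mcpt4 (0.150 to 0.192) and Tpsab1 (0.103 to 0.135) had low values in spermatogonia. All 4 were listed at 0 in both later stages but for 0.0202 FPKM of Tpsab1 in pachytene replicate 1. The receptor subunits Fcer1a and Ms4a2 had at most 0.0567 FPKM in any library. The part of Leydig and mast cell RNA in the Kit values was not tested.

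Sohlh1 had 2.64, 2.83 and 1.96 FPKM in pachytene, against 27.8, 28.0 and 21.2 in spermatogonia. Its pachytene mean was 9.64% of the spermatogonial mean, with a log2 fold change of -3.33 (SE 0.152, adjusted p = 2.58e-08, limma). Round spermatids held 5.06, 5.63 and 5.25 FPKM, which lies above all 3 pachytene libraries. The gain over pachytene was the smallest among the 5 genes called higher, at 1.09 on the log2 scale (adjusted p = 0.000145, limma). That call was lost without pachytene replicate 3, the lowest of its stage, where the value was 0.93 (adjusted p = 0.00031, limma), and under 2 other settings given in the closing section. Against spermatogonia, Sohlh1 in round spermatids was lower, at -2.24 (adjusted p = 4.6e-07, limma).

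Sohlh2, its partner, had 2.30, 2.49 and 2.70 FPKM in pachytene, against 14.1, 12.3 and 10.6 in spermatogonia. The mean was 20.3% of the spermatogonial mean, against 7.09% to 9.64% for the other 4 genes that fell, a difference that was not tested. The log2 fold change was -2.25 (SE 0.113, adjusted p = 5.3e-08, limma). In round spermatids it had 8.23, 7.62 and 8.61 FPKM, against 2.30 to 2.70 in pachytene, a rise of 1.67 on the log2 scale (adjusted p = 1.06e-06, limma). Round spermatids did not overlap spermatogonia, but the log2 fold change between them, -0.58 (adjusted p = 0.000905, limma), was under the fold threshold, and Sohlh2 was not called there.

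The proportion of the 2 partners was higher in each spermatogonial library than in any later one. Sohlh1 over Sohlh2, taken within each library, was 1.97, 2.28 and 2.01 in spermatogonia, 1.15, 1.14 and 0.726 in pachytene and 0.614, 0.739 and 0.609 in round spermatids. Per unit of transcript length, round spermatids held 0.654 ± 0.0734 times as much Sohlh1 as Sohlh2, and spermatogonia 2.09 ± 0.170 times as much (SD, n = 3 each). The log2 ratio in pachytene against spermatogonia differed by -1.09 and in round spermatids against spermatogonia by -1.68, each with an exact two-sided permutation p = 0.1, the smallest that 3 libraries against 3 allow, and 0.12 after adjustment over the 6 ratio tests made. Round spermatids against pachytene gave -0.59 with overlapping libraries (exact permutation p = 0.2, adjusted 0.2).

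Dmrt1 was the most abundant of the 6 in spermatogonia. It had 6.98, 7.32 and 6.49 FPKM in pachytene, against 92.0, 91.2 and 72.1 in spermatogonia, where the lowest library was replicate 3. The pachytene mean was 8.15% of the spermatogonial one, and the log2 fold change was -3.59 (SE 0.0955, adjusted p = 5.88e-10, limma). Round spermatids had 19.2, 18.0 and 18.6 FPKM, above every pachytene library (log2 fold change 1.41, adjusted p = 1.03e-06, limma) and below every spermatogonial one (-2.18, adjusted p = 1.88e-08, limma). DMRT1 is also made by Sertoli cells in the mouse testis. Of the 15 Sertoli markers, 13 fell and 1 rose in pachytene against spermatogonia, while in round spermatids against pachytene 11 fell and 1 rose (13 fell with equal library medians). Among all features, 31.0% were called lower and 36.6% higher in the first comparison, and 13.4% lower and 27.3% higher in the second. Dmrt1 rose in that second comparison. The part of Sertoli RNA in the Dmrt1 values was not tested.

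Dmrtb1 had 339.9, 366 and 341 FPKM in pachytene, against 16.4, 15.1 and 11.6 in spermatogonia. The lowest pachytene library was above the highest spermatogonial one, the mean ratio was 24.3, and the log2 fold change was 4.61 (SE 0.112, adjusted p = 3.21e-10, limma). In round spermatids it had 459, 485 and 483 FPKM, a mean ratio of 1.36 to pachytene with no overlap. That step did not reach the fold threshold, with a log2 fold change of 0.45 (adjusted p = 0.00528, limma), and with library medians made equal it was 0.09 (adjusted p = 0.591, limma). Round spermatids exceeded spermatogonia by 5.05 on the log2 scale (adjusted p = 1.38e-10, limma). As background, DMRT6 protein is described in differentiating spermatogonia. The RNA was lowest here in the spermatogonial libraries, which hold types A and B together. Its level in differentiating spermatogonia alone was not tested.

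Set against Dmrt1 in the same library, Dmrtb1 was the minor DM domain transcript in spermatogonia and the major one afterwards. Dmrtb1 over Dmrt1 was 0.178, 0.166 and 0.161 in spermatogonia, 48.7, 50 and 52.5 in pachytene and 23.9, 27.0 and 25.9 in round spermatids. The 3 stages did not overlap, and the log2 ratio differed by 8.23 in pachytene against spermatogonia, by 7.25 in round spermatids against spermatogonia and by -0.98 in round spermatids against pachytene. Each had an exact two-sided permutation p = 0.1, the smallest possible, and 0.12 after adjustment over the same 6 tests.

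**Figure D3:**
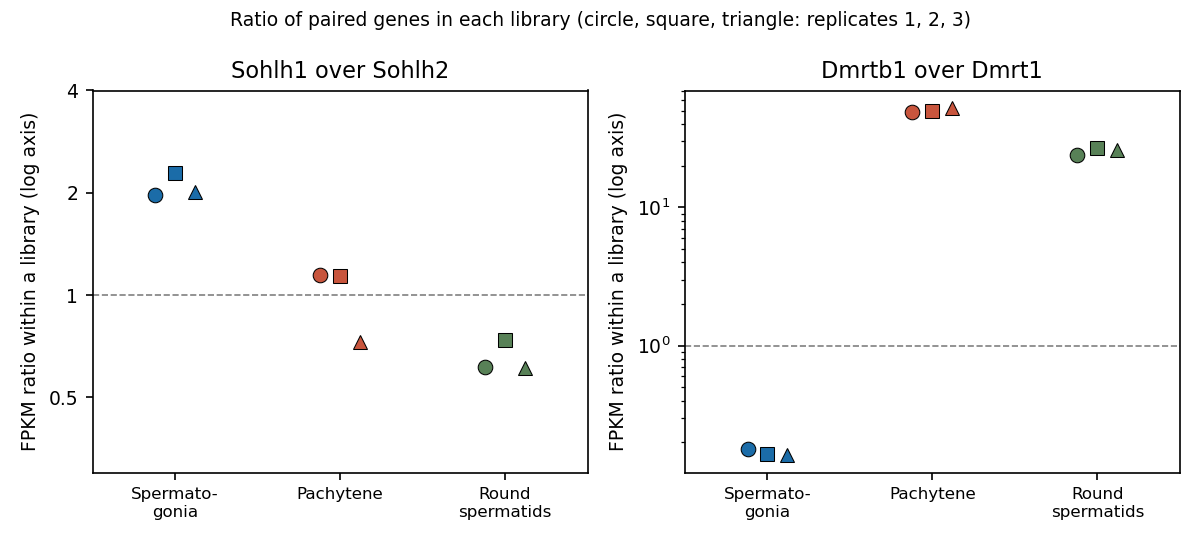
Ratio of FPKM within each library on a log axis, for Sohlh1 over Sohlh2 (left panel) and Dmrtb1 over Dmrt1 (right panel), with 1 point per library. Sohlh1 over Sohlh2 is 1.97 or more in spermatogonia and 0.739 or less in round spermatids, and Dmrtb1 over Dmrt1 is below 1 only in spermatogonia.

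Rhox13 had 0.942, 1.51 and 1.12 FPKM in pachytene, against 17.9, 17.7 and 14.7 in spermatogonia. Its pachytene mean was 7.09% of the spermatogonial mean, and the log2 fold change was -3.73 (SE 0.158, adjusted p = 1.54e-08, limma). In round spermatids it had 10.3, 11.4 and 9.47 FPKM. All 3 were above the pachytene libraries, and the gain of 3.04 on the log2 scale (adjusted p = 1.87e-07, limma) stood beside 1.09 to 1.69 for the other 4 genes called higher. Against spermatogonia, round spermatids were at -0.69 (adjusted p = 0.00252, limma), under the fold threshold and not called, although the libraries did not overlap. Rhox13 is the X-linked member. As background, the X chromosome is transcriptionally silenced in pachytene spermatocytes of mammals. Over the 795 X-linked features tested, the median log2 fold change was -2.32 in pachytene against spermatogonia, with 518 lower and 170 higher, and 1.57 in round spermatids against pachytene, with 497 higher and 46 lower. The 17082 autosomal features had medians of 0.30 and 0.08. Rhox13 was thus further from 0 than the X-linked median in both comparisons, and 78 X-linked features fell more than it did in the first.

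**Figure D4:**
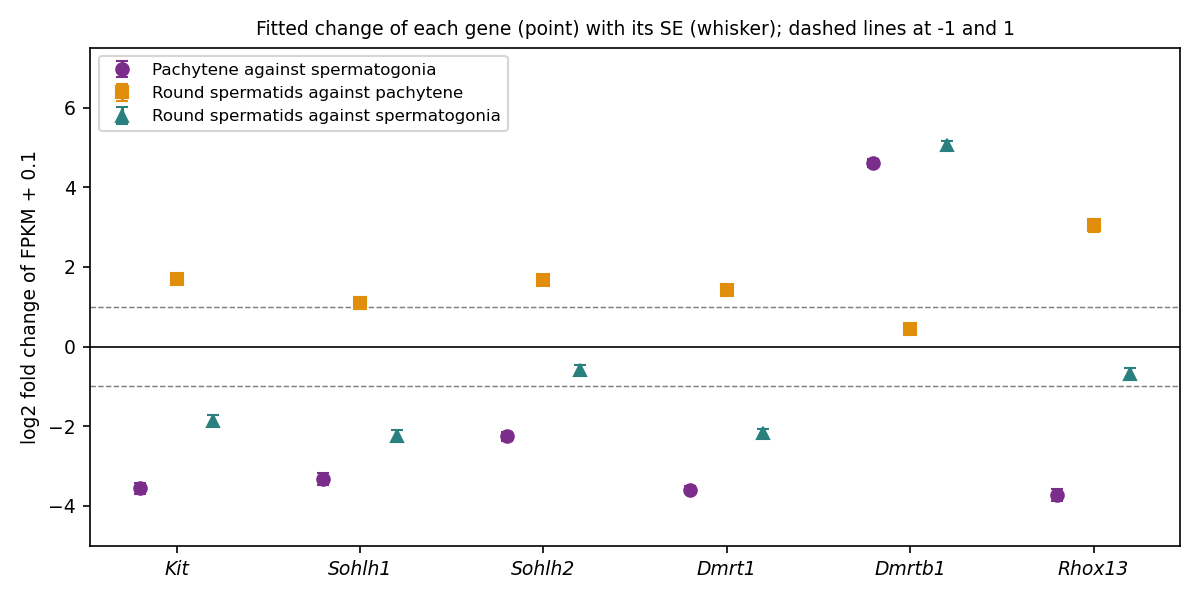
Log2 fold change of FPKM + 0.1 for each gene in the 3 stage comparisons (points) with the limma SE (whiskers), and dashed lines at the fold threshold of 1 in both directions. Dmrtb1 is the 1 gene above 0 in pachytene against spermatogonia, and Sohlh2 and Rhox13 lie inside the dashed lines in round spermatids against spermatogonia.

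The order of the 6 genes changed with the stage. In spermatogonia, the means (SD, n = 3 each) were 85.1 ± 11.3 FPKM for Dmrt1, 25.7 ± 3.88 for Sohlh1, 19.3 ± 2.38 for Kit, 16.8 ± 1.81 for Rhox13, 14.4 ± 2.48 for Dmrtb1 and 12.3 ± 1.80 for Sohlh2. Dmrt1 was clear of Sohlh1, and every other pair of neighbours in this order overlapped between libraries. In pachytene, Dmrtb1 led with 348.9 ± 14.9 FPKM, followed by Dmrt1 with 6.93 ± 0.415, Sohlh2 with 2.5 ± 0.197, Sohlh1 with 2.48 ± 0.459, Kit with 1.55 ± 0.285 and Rhox13 with 1.19 ± 0.288. Sohlh2 and Sohlh1 overlapped there, as did Kit and Rhox13. In round spermatids the order was Dmrtb1 with 475.7 ± 14.5 FPKM, Dmrt1 with 18.6 ± 0.626, Rhox13 with 10.4 ± 0.948, Sohlh2 with 8.15 ± 0.498, Sohlh1 with 5.31 ± 0.293 and Kit with 5.20 ± 0.157, and of these neighbours Sohlh1 and Kit overlapped.

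All 6 genes also stood in the authors' deposited table for both successive transitions. In the authors' deposited table the log2 fold changes in pachytene against spermatogonia were -3.63 for Kit, -3.38 for Sohlh1, -2.30 for Sohlh2, -3.62 for Dmrt1, 4.6 for Dmrtb1 and -3.82 for Rhox13. For round spermatids against pachytene, the authors' deposited table gave 1.74 for Kit, 1.10 for Sohlh1, 1.71 for Sohlh2, 1.42 for Dmrt1, 0.45 for Dmrtb1 and 3.12 for Rhox13. The q-value in the authors' deposited table was 0.000104 for each of these, except 0.00777 for Dmrtb1 in the second transition.

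Making the library medians equal moved log2 fold changes by about 0.11 in pachytene against spermatogonia, -0.36 in round spermatids against pachytene and -0.25 in round spermatids against spermatogonia. In round spermatids against pachytene, 67.0% of the features called were higher in the deposited scaling and 49.2% with equal medians. Kit (1.33), Sohlh2 (1.31), Dmrt1 (1.05) and Rhox13 (2.68) kept their calls there with equal medians, and Sohlh1 did not, at 0.73 (adjusted p = 0.00422, limma).

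Of the 39 genes of a list of the ligand and the signalling components downstream of KIT, 13 fell and 5 rose in pachytene against spermatogonia, with a median log2 fold change of -0.39, where 31.0% of all features were called lower and 36.6% higher. Kitl, the ligand, fell to 3.59, 3.06 and 2.70 FPKM in pachytene, against 36.5, 44.4 and 41.2 in spermatogonia (log2 fold change -3.67, adjusted p = 5.54e-09, limma). It was lower still in round spermatids, at 1.32, 1.01 and 1.26 FPKM (-1.31 against pachytene, adjusted p = 1.78e-05, limma), where Kit was higher, although this second fall was not called with a pseudocount of 1 FPKM. Kitl moved with the Sertoli markers in both comparisons, and their part in it was not tested. The other large falls in pachytene were those of Pik3r1, a regulatory subunit of the phosphoinositide kinase PI3K (-3.09, adjusted p = 8e-06), Foxo1, a transcription factor restrained by that pathway (-2.92, adjusted p = 2.5e-08), and Jak2, a cytoplasmic tyrosine kinase (-2.53, adjusted p = 3.01e-08), all by limma. Lyn, also on the list, passed the filter through spermatogonia alone, with 0.941 to 2.26 FPKM there and at most 0.300 later.

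At the next step, round spermatids against pachytene, 6 genes of the KIT list rose and 6 fell (median log2 fold change -0.06), and with equal library medians 1 rose and 11 fell. Over all features in the deposited scaling, 27.3% were called higher and 13.4% lower. Pdpk1, the kinase that activates AKT, rose by 1.89 on the log2 scale (adjusted p = 3.75e-09, limma), with 97.1 ± 2.46 FPKM in round spermatids and 26.1 ± 0.534 in pachytene (SD, n = 3 each). The catalytic PI3K subunits Pik3cb (-1.57, adjusted p = 8.27e-08) and Pik3ca (-1.5, adjusted p = 2.04e-07) and the adaptor Gab2 (-1.5, adjusted p = 1.49e-06) fell, by limma. Across both steps, round spermatids against spermatogonia, 13 fell and 6 rose (median -0.71), beside 30.1% of all features called lower and 38.5% higher. The catalytic subunit Pik3cd (2.86, adjusted p = 1.46e-10) and Pdpk1 (2.78, adjusted p = 2.95e-11) rose, and Kitl (-4.98, adjusted p = 5.76e-10) and the SRC-family kinase Fyn (-2.82, adjusted p = 2.68e-09) fell, by limma.

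KIT belongs to the type III receptor tyrosine kinases, and its 4 relatives had stage means of 0.123 to 9.33 FPKM. In pachytene against spermatogonia Pdgfra fell by 3.68 on the log2 scale (adjusted p = 3.94e-09, limma), Pdgfrb by 2.71 (adjusted p = 2e-05, limma) and Csf1r by 2.30 (adjusted p = 0.0016, limma). Csf1r had 0.654, 0.509 and 2.75 FPKM in spermatogonia replicates 1 to 3, and without replicate 3 its log2 fold change was -1.61 (adjusted p = 2.97e-05, limma). Flt3 was not called, at 2.09 ± 0.123 FPKM in pachytene and 1.77 ± 0.239 in spermatogonia (SD, n = 3 each). Pdgfra had 0.636 ± 0.0938 FPKM in pachytene and 9.33 ± 0.882 in spermatogonia. It is a marker of interstitial cells, whose 10 listed markers all fell in that comparison, and Csf1r is a macrophage marker. Csf1r then rose in round spermatids against pachytene, by 3.23 (adjusted p = 0.000244, limma) together with 6 of the other 8 macrophage markers found, and Pdgfra rose by 1.09 (adjusted p = 4.57e-05, limma), a call that was lost with equal library medians or a pseudocount of 1 FPKM. Without spermatogonia replicate 3, which had the most macrophage markers, 5 macrophage markers, Csf1r among them, were called higher in round spermatids than in spermatogonia, and with it these 5 were not.

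Besides Dmrt1 and Dmrtb1, 7 of the 9 further members in the table passed the filter, of which 3 rose, 3 fell and 1 was not called in pachytene against spermatogonia, beside 36.6% of all features called higher and 31.0% lower. Dmrtc2, which acts at the meiotic sex chromosomes in mouse pachytene cells, had 70.4, 69.5 and 68.7 FPKM in pachytene, against 3.33, 3.83 and 2.21 in spermatogonia (log2 fold change 4.47, adjusted p = 4.92e-09, limma). It was the second DM gene after Dmrtb1 in both later stages, with 44.4 to 44.9 FPKM in round spermatids, and round spermatids against pachytene gave -0.64, under the fold threshold (adjusted p = 0.00578, limma). Dmrtc1b had 5.34 ± 0.408 FPKM in pachytene and 0.181 ± 0.0710 in spermatogonia (log2 fold change 4.30, adjusted p = 7.27e-08, limma). Its near-identical copies in the X-linked Dmrtc1 group make both this value and that of Dmrtc1a, 12.1 ± 0.649 FPKM in pachytene and 8.89 ± 1.53 in spermatogonia (SD, n = 3 each), uncertain.

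Dmrta2, a gene known from brain and limb development, was the third that rose in pachytene (1.26, adjusted p = 0.000186, limma). It reached 15.1, 17.3 and 15.9 FPKM in round spermatids, against 1.46, 1.60 and 1.70 in pachytene (log2 fold change 3.26, adjusted p = 4.21e-07, limma). Dmrt3 and Dmrt2, like Dmrt1, were lowest in pachytene. In pachytene against spermatogonia Dmrt3 fell by 1.88 and Dmrt2 by 2.37 on the log2 scale, and in round spermatids against pachytene Dmrt3 rose by 3.14 (adjusted p = 5e-07, limma) and Dmrt2 by 2.62 (adjusted p = 4.74e-06, limma). Dmrt2 had 1.12 to 1.20 FPKM in round spermatids and 0.0768 to 0.165 in pachytene. At these low levels the changes of Dmrt2, Dmrt3 and Dmrta2 in pachytene against spermatogonia were not called with a pseudocount of 1 FPKM. Dmrta1 fell at both steps, with 0.789 ± 0.0892 FPKM in round spermatids, 2.97 ± 0.129 in pachytene and 14.1 ± 1.61 in spermatogonia (SD, n = 3 each). Of the 7, 3 rose and 2 fell in round spermatids against pachytene, beside 27.3% of all features called higher and 13.4% lower. Against spermatogonia, 4 rose and 1 fell in round spermatids, beside 38.5% of all features called higher and 30.1% lower.

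**Figure D5:**
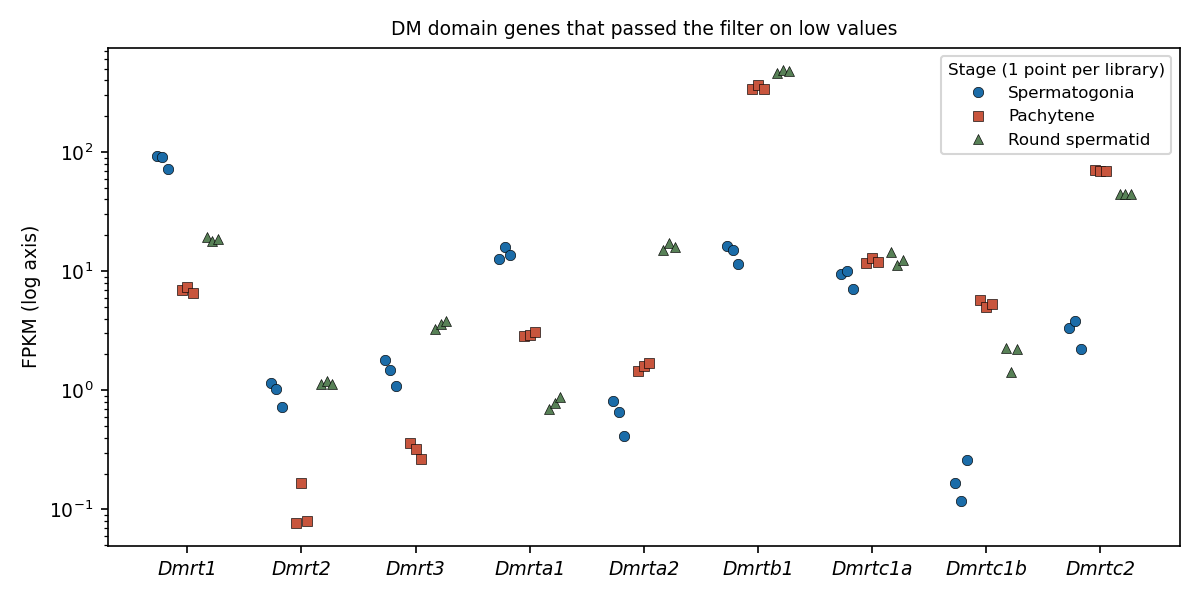
FPKM of the 9 DM domain genes that passed the filter, on a log axis, with 1 point per library and the stages as colours. Dmrt1 is the highest in spermatogonia, and Dmrtb1 and then Dmrtc2 are the highest in pachytene and round spermatids.

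The Rhox cluster holds the relatives of Rhox13, and 29 further Rhox genes were in the table. Of these, 11 passed the filter. In pachytene against spermatogonia 6 of them fell, Rhox8 (-3.36), Rhox1 (-2.99), Rhox2a (-2.81), Rhox10 (-2.69), Rhox2b (-2.46) and Rhox2d (-2.15), all log2 fold changes called by limma. Over all features, 31.0% were called lower and 36.6% higher. Rhox8, Rhox2b and Rhox2d reached 0.5 FPKM in spermatogonia alone, so the filter let them in only as genes higher in that stage. Rhox5 (2.2), Rhox3h (1.67) and Rhox11 (1.66) rose. The called changes of Rhox2b, Rhox2d, Rhox3h and Rhox11 were lost with a pseudocount of 1 FPKM. Rhox8 and Rhox5 are also listed Sertoli markers, and of the pair Rhox8 was lower and Rhox5 higher in pachytene. Among all 12 Rhox genes tested Rhox13 was the highest in spermatogonia. Rhox8 came next with 3.73 ± 0.363 FPKM, against 16.8 ± 1.81 for Rhox13 (SD, n = 3 each). Without spermatogonia replicate 3 the Rhox genes called lower in pachytene numbered 4 and not 7, Rhox13 included. A gene with values in 1 stage alone then cannot reach the filter's 3 libraries.

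From the 11, 7 rose and 4 were not called in round spermatids against pachytene: Rhox11 (3.62), Rhox3c (3.34), Rhox3f (3.11), Rhox3h (2.76), Rhox2a (1.67), Rhox2b (1.27) and Rhox1 (1.24), as log2 fold changes called by limma. Over all features, 27.3% were called higher and 13.4% lower. Rhox3c and Rhox3f reached 0.5 FPKM in round spermatids alone, so the filter let them in only as genes higher in that stage. The calls of Rhox2a, Rhox2b and Rhox1 were lost with a pseudocount of 1 FPKM. With equal medians 6 of the 12, Rhox13 included, rose and 2 fell, Rhox5 and Rhox8. Rhox11 reached 9.11, 7.40 and 9.04 FPKM in round spermatids, against 0.580, 0.582 and 0.636 in pachytene and 0.0447, 0.207 and 0.143 in spermatogonia. Rhox3c was listed at 0 in all 3 spermatogonial libraries. The Rhox2 and Rhox3 genes are near-identical copies, and their single values are uncertain. Against spermatogonia, 5 rose and 6 fell in round spermatids, and without spermatogonia replicate 3, where fewer of these genes pass the filter, 3 fell. The shares of all features there were 38.5% higher and 30.1% lower. Rhox1, Rhox2a, Rhox2b, Rhox2d and Rhox5 were not called there when the pseudocount was 1 FPKM.

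The bHLH list, with the inhibitors of the ID family and 2 homeobox genes that act with SOHLH1 in mouse oocytes, Lhx8 and Nobox, held 17 further genes that passed the filter. In pachytene against spermatogonia 13 of them fell and 2 rose, with a median log2 fold change of -2.90. Over all features, 31.0% were called lower and 36.6% higher. Tcfl5, a testis bHLH gene needed for mouse spermatogenesis, had 383, 373 and 377 FPKM in pachytene, against 16.9, 16.3 and 12.8 in spermatogonia (log2 fold change 4.63, adjusted p = 7.9e-11, limma). Id4, which marks mouse spermatogonial stem cells, was the other riser, with 73.4, 74.5 and 77.8 FPKM in pachytene, against 3.88, 4.19 and 3.03 in spermatogonia (4.32, adjusted p = 4.22e-10, limma). Id3 (-3.69, adjusted p = 3.43e-08) and Nobox (-3.65, adjusted p = 7.9e-06) fell most, by limma. Nobox had 1.39 to 1.86 FPKM in spermatogonia and at most 0.163 in any library of the later stages. It thus passed the filter through spermatogonia alone and could hardly be called anything but lower. The size of its fall depends on the pseudocount. Neurog3, with 1.14 to 1.54 FPKM in spermatogonia and at most 0.142 later, passed the filter in the same way. So did Myc, with 2.37 to 2.61 FPKM in spermatogonia and at most 0.341 later. Without spermatogonia replicate 3, 12 of the list fell, Sohlh1 and Sohlh2 included, against 15 with it, with fewer genes passing the filter.

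E proteins are the widely expressed bHLH partners. They were picked out after their values were seen. In pachytene against spermatogonia Tcf3 fell by 3.01 on the log2 scale (adjusted p = 9.95e-09, limma) and Tcf12 by 2.87 (adjusted p = 1.2e-08, limma), while Tcf4 was not called, at 9.06 ± 0.439 FPKM in pachytene and 11.8 ± 4.29 in spermatogonia (SD, n = 3 each). Of the 17, 4 rose and 2 fell in round spermatids against pachytene, beside 27.3% of all features called higher and 13.4% lower. Figla, a bHLH gene best known from oocytes, rose by 1.53 (adjusted p = 2.9e-05, limma) and Id3 by 1.46 (adjusted p = 5.19e-05, limma), while Id4 fell by 2.62 (adjusted p = 4.63e-08, limma). Figla and Id3 were not called with a pseudocount of 1 FPKM. Against spermatogonia, 14 fell and 2 rose in round spermatids, beside 30.1% of all features called lower and 38.5% higher. Tcfl5 rose by 3.93 (adjusted p = 1.94e-10, limma), and Id2 (-3.29), Nobox (-2.96) and Mycn (-2.89) were the largest called falls. For Nobox, Neurog3 and Myc the limit set by the filter holds here too.

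Of the 8 further genes listed for differentiating spermatogonia, 7 fell in pachytene against spermatogonia and Uhrf1, a factor of maintenance DNA methylation, rose by 1.04 (adjusted p = 1.99e-06, limma). That rise was no longer called without spermatogonia replicate 3. Over all features, 31.0% were called lower and 36.6% higher. Crabp1, which binds retinoic acid in the cell, fell by 4.25 (adjusted p = 4.33e-09, limma) and Ccnd2, a cyclin of the G1 phase, fell by 4.14 (adjusted p = 1.01e-09, limma). Stra8, the retinoic-acid target that licenses meiotic entry, had 3.16, 2.72 and 3.01 FPKM in pachytene, against 41.6, 40.2 and 33.3 in spermatogonia (-3.65, adjusted p = 6.26e-10, limma). In round spermatids against pachytene Crabp1 (2.10), Stra8 (1.44) and Dnmt3a, a de novo DNA methyltransferase (1.33), rose, and Ccnd2 was among the 5 not called. The shares of all features there were 27.3% higher and 13.4% lower. With equal medians Dnmt3a was not called there, and Uhrf1 was called lower. Against spermatogonia, 7 fell in round spermatids and 1 was not called, beside 30.1% of all features called lower and 38.5% higher.

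Of the 18 genes tested from the list for undifferentiated spermatogonia, 12 fell and 1, Id4, rose in pachytene against spermatogonia, with a median log2 fold change of -2.18. Over all features, 31.0% were called lower and 36.6% higher. Ret, a receptor subunit for GDNF (-3.32, adjusted p = 7.02e-09), Zbtb16, a stem cell repressor (-3.32, adjusted p = 2.36e-09), and Sox3 (-3.19, adjusted p = 8.57e-08) led the falls, by limma. Neurog3, also on this list, passed the filter through spermatogonia alone and could hardly be called anything but lower in a later stage. In round spermatids against pachytene 3 rose and 4 fell, beside 27.3% of all features called higher and 13.4% lower. With equal medians 1 rose and 4 fell. Gfra1, the other GDNF receptor subunit, rose by 2.25 (adjusted p = 1.62e-07, limma). Of 13 genes of meiotic entry and prophase, 4 rose and 6 fell in pachytene against spermatogonia. The shares of all features there were 36.6% higher and 31.0% lower. Spo11, which makes the meiotic breaks, rose by 5.77 (adjusted p = 1.15e-10, limma), and Tex11 (-4.09), Stra8 (-3.65) and Prdm9 (-3.33) fell. In round spermatids against pachytene 6 rose, led by Rec8 (3.5), Tex11 (2.7), Dmc1 (2.4) and Prdm9 (2.1), and 3 fell. Against spermatogonia 5 rose and 3 fell in round spermatids, most of all Rec8 (4.1), Spo11 (3.9), Stra8 (-2.2) and Hormad1 (1.7). Of all features 27.3% rose and 13.4% fell in the former, and 38.5% and 30.1% in the latter. Tex11, Dmc1 and Prdm9 had their highest mean in spermatogonia and lowest in pachytene, like 5 of the 6 genes.

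Likeness to each gene was measured as the root mean square difference of log2(FPKM + 0.1) over the 9 libraries, each profile centred on its own mean, among 16550 features. It describes the shape over these libraries, which share stage and depth, and small values mean a close match. Among the 6 genes, Sohlh1 and Dmrt1 were the closest pair at 0.178, then Kit and Dmrt1 at 0.212 and Kit and Sohlh1 at 0.327. Sohlh2 and Rhox13 were 0.63 to 0.86 from these and from each other, and Dmrtb1 was 2.99 or more from every other gene. The nearest features of all were Mageb4 (0.06), Plcl2 (0.079) and Stra8 (0.089) for Dmrt1, Ret (0.112), Noc2l (0.122) and Samd1 (0.127) for Sohlh1, and Mei4 (0.103), Gm26678 (0.114) and Gcat (0.123) for Kit. For Sohlh2 they were Agap1 (0.105), Erdr1 (0.124) and Pls1 (0.126), and for Dmrtb1 Tprn (0.0914), Gm12532 (0.104) and Eno4 (0.114). Rhox13 had 1 close match, Mgmt (0.0996), and then Uba1y (0.178) and Pappa (0.204). With a pseudocount of 1 FPKM, 2 of the 3 nearest of Sohlh1 were kept, 0 of Kit's and 1 of each other gene's.

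The lncRNA table of the series, which is scaled separately, held 3 features within 50 kb of one of the 6 genes. The lincRNA 1700047F07Rik (chr4:107689701-107758985, plus strand) lies 5.47 kb from Dmrtb1. It had 1195, 1301 and 1016 FPKM in round spermatids, against 130.4, 91.1 and 91.0 in pachytene, and in spermatogonia it was listed at 0, 0 and 1.58 FPKM. In round spermatids against pachytene it rose by 3.50 on the log2 scale (SE 0.977, adjusted p = 0.0247, limma), where 22.5% of the lncRNA features tested were called higher. Dmrtb1 itself was higher in both later stages than in spermatogonia. The other two share the listed locus chr2:25783940-25794650, 48.34 kb from Sohlh1, on opposite strands. Gm13538 had 147, 127 and 109 FPKM in round spermatids, against 11.4, 14.6 and 17.2 in pachytene, and Gm13539 had 80.5, 83.0 and 91.0 FPKM in round spermatids, against 6.93, 15.3 and 12.7 in pachytene. Both were listed at 0 in all 3 spermatogonial libraries, in which Sohlh1 was highest, and both rose in round spermatids against pachytene, by 3.15 (adjusted p = 0.000326, limma) for Gm13538 and 2.93 (adjusted p = 0.00122, limma) for Gm13539. They overlap each other, and Gm13539 is protein-coding in M21. Its M21 position, chr2:25782257-25787022, is 55.97 kb from Sohlh1, outside the 50 kb.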

How the data were processed

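RNA of 9 libraries was sequenced from stranded Illumina TruSeq libraries made from total RNA, per the labels' protocols. The submitters' processing notes list quality control with FastQC, and Trim Galore, TopHat2 version 2.0.12 and Cuffdiff version 2.2.1 on mm10. The annotation release, the options and whether counting was strand-aware were not given in the sources used here. FPKM values per feature and library were deposited by the authors in an mRNA table of 39336 features and a separately scaled lncRNA table of 5385 features. The authors also deposited lists of called features with a log2 fold change, a p-value and a q-value. FPKM are not counts, so no count model was used.

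From these, log2(FPKM + 0.1) values were fitted per table in limma 3.58.1 under R 4.3.3, using all 9 libraries and the trended prior variance. Features needed 0.5 FPKM or more in 3 libraries (17987 in the mRNA and 4009 in the lncRNA table), and p-values were adjusted by Benjamini-Hochberg over all features of the table. A fold change on this scale understates that of low features. Because a library was blank, 31 mRNA table features were dropped, and 38474 identifiers matched GENCODE M21. Coordinates are 1-based on GRCm38. Depth was estimated roughly from low values of FPKM times length, with 1 step taken as 1 fragment and no interval made from it. The fit was tested on simulated data.

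The members and lists were chosen with earlier results of these data known. Named were the 6 genes, up to 4 called genes of each list with the largest change per comparison, all DM domain, type III kinase and called Rhox genes, the 3 nearest profiles of each gene, and lncRNA table features within 50 kb. Alternatives were other pseudocounts (1 and 0.01 FPKM), other filters, equal library medians, no mean trend, a replicate block, fits of 2 stages alone, and each library left out. The protein sequences and a Dmrt1 promoter were not used here.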

Additional observations from a re-analysis of the deposited data

How the results depend on the processing

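Over 17 alternatives, 303 of the 306 values of the 18 results of the 6 genes kept their direction and their side of the threshold, and none reversed. The other 3 are Sohlh1 in round spermatids against pachytene, which was no longer called with a pseudocount of 1 FPKM (0.87, adjusted p = 0.000186, limma), with equal library medians (0.73, adjusted p = 0.00422, limma) and without pachytene replicate 3 (0.93, adjusted p = 0.00031, limma); its range was 0.73 to 1.19. The features called lower in round spermatids against pachytene numbered 4115 with equal medians, against 2418, because that scaling moves the values of the comparison by about -0.36. With a library left out, 2276 to 2459 were called lower and 3928 to 4879 higher there. Of the 8944 values of single list genes under alternatives, 8746 kept their status, called or not called. A call was lost in 133 and gained in 65, and none reversed. A gene that no longer passed the filter under an alternative has no value there, so such losses are not counted. With the replicate number as a block, 6, 5 and 4 of the 6 genes were called in the 3 comparisons, as without it, and 4917 features were called higher and 2421 lower in round spermatids against pachytene. Deviations from the stage means correlated at -0.106 to 0.0388 for libraries of the same number and -0.0616 to 0.116 for different ones. Libraries of the same number were thus no more alike. With 3 libraries a stage, these correlations cannot decide whether the numbers pair libraries by origin. With 3 libraries a stage, the permutation tests of ratios could not go below 0.1. By the rough depth estimate, Rhox13 in pachytene rests on about 21 to 30 fragments. The alternatives for ratios, profiles, lists and lncRNA features were added after the data were seen.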
